A study of Mus musculus with 20 samples.

Results

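Colon RNA levels of 8 DNA repair genes were compared in mice with and without AOM/DSS, and with and without Pien Tze Huang (PZH), a formula of Chinese medicine. The genes were chosen by name, though with earlier results of these data known, and they are 8 of the 32991 genes in the tables. They are Mgmt, Mpg and Xrcc1, which act on alkylated or otherwise damaged bases, and Msh3, Msh6, Mlh3, Pms1 and Pms2, which belong to mismatch repair. Each value is the FPKM (fragments per kilobase of transcript, scaled to library size) of a gene, summed over its annotated Ensembl transcripts in 1 mouse.

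There were 20 mice in 4 groups of 5, with 1 library each. Control mice were gavaged with double distilled water for 91 days and PZH mice with 250 mg/kg/d PZH. Model mice were given the water and Model + PZH mice the PZH, and both had 1 intraperitoneal dose of 12.5 mg/kg azoxymethane (AOM). From 7 days later they drank 2% dextran sulfate sodium (DSS) for 5 days and plain water for 2 weeks, over 4 cycles. All were male C57BL/6 mice by the study's methods, and their age was not given in the sources used here. The labels name colon as the tissue, do not say whether a piece held tumour or surrounding mucosa, and mention the abdominal aorta in the extraction text.

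AOM is turned into a methylating agent in the body, and DSS inflames the colon. O6-methylguanine, the most mutagenic base that such agents leave, pairs with thymine when DNA is copied. MGMT takes the methyl group off guanine and is used up by doing so. MPG, a glycosylase, cuts out methylated purines, and XRCC1 is the scaffold on which the base excision repair enzymes finish the patch. In mismatch repair, proteins of the MutS family (MSH3 and MSH6 here) find mispaired or slipped bases, and proteins of the MutL family (MLH3, PMS1 and PMS2 here) pass the signal on to excision and resynthesis.

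With AOM/DSS, mean Mgmt was lower and mean Msh6 higher. The mean Mgmt level of the 10 AOM/DSS mice was 0.585 times that of the 10 others. The fall passed the test over both arms together, a contrast added after seeing the data, in which 30.3% of all genes were called. In neither arm fitted alone did Mgmt pass. Msh6 rose 1.36-fold from Control to Model mice, and its call depended on the mice included. Pms1 was 1.57-fold higher in Model than in Control mice, short of the threshold. Mpg, Xrcc1, Msh3, Mlh3 and Pms2 did not pass the test in any comparison, and none of the 8 genes passed it for PZH.

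The starts of 3 genes are shown, those of Msh6 and Mgmt because the values turn on them and that of Msh3 because it is the other member with an E2F-type match. All 8 genes were matched by symbol to the RefSeq promoter table (GRCm38.p6), with 10 windows of 250 bases before to 50 bases after a start. The windows below run 5′ to 3′ along the gene's own strand. Capitals mark E2F-type letters (TTTCCCGC or TTTGGCGC) in Msh6 and Msh3. In Mgmt they mark the GC box GGGCGG, read here from the other strand. The Msh6 window is chr17:87974800-87975099 on the plus strand, the Msh3 window chr13:92354954-92355253 on the minus strand and the Mgmt window chr7:136894336-136894635 on the plus strand.
Msh6: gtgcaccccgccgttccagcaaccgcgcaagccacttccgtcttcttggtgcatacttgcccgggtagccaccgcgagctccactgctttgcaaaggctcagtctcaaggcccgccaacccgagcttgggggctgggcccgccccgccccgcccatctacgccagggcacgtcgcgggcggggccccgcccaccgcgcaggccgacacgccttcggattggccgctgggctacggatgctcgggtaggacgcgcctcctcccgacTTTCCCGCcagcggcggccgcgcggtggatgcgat
Msh3: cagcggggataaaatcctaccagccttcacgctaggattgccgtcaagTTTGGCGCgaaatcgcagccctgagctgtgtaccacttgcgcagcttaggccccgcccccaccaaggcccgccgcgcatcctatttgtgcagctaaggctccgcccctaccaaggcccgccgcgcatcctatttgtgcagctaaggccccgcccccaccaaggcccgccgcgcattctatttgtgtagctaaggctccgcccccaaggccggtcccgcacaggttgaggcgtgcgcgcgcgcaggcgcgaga
Mgmt: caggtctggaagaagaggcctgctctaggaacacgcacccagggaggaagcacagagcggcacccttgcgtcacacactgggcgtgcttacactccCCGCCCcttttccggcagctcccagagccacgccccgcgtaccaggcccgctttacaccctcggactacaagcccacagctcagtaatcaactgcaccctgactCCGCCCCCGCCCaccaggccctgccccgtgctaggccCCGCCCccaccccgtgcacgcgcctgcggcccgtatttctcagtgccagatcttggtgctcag

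Both strands of each window were searched. TTTCCCGC occurred in Msh6, from position 266 of the window counted from its 5′ end, and in 1.07% of 32851 promoters of the same length. TTTGGCGC occurred in Msh3, from position 49, and in 0.514% of promoters, and neither was found in the windows of the other 6 genes. The GC box occurred in 35.7% of promoters. It was present 5 times in Msh6, 4 times in Msh3, 4 times in the Mgmt window shown, 3 times in Mpg, 2 times in Pms2 and 1 time in Pms1, and these letters were not in the Xrcc1 and Mlh3 windows. The Xrcc1 window (chr7:24546449-24546748) lies inside the gene, which is annotated from 24546289, so the bases around that start were not searched. In Msh3 the GC boxes began at positions 101, 149, 197 and 245. The Msh6 window held 37 CpG dinucleotides, that of Msh3 29 and that of Mgmt 20, where the median promoter held 7. These are matches of letters only.

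Each library held an estimated 15380000 to 19540000 fragments, read from the step size of FPKM multiplied by transcript length, and the groups overlapped in depth. Levels of cell type markers differed between the groups. In Model against Control mice, 7 of 7 smooth muscle markers, 4 of 10 colon epithelium markers and 3 of 5 enteric nerve and glia markers fell, while 4 of 9 leukocyte, 2 of 5 endothelium and 2 of 6 fibroblast markers rose and 1 fibroblast marker fell, where 23.6% of all genes were called. Summed squamous keratin and related markers reached 225 and 195 FPKM in Control mice 17 and 50, and at most 56.6 FPKM elsewhere. Of 11 colon epithelium markers 7 were above 10 FPKM in every mouse, among them Vil1, Krt20 and Muc2. Cdx2 was as low as 7.23 FPKM, Phgr1 ranged from 0.16 to 7.74 FPKM and Krt8 from 0.07 to 3071.31 FPKM, and Epcam was listed at 0 in 13 of 20 mice and at up to 864.72 FPKM in the others. Fragments assigned to transcripts that the study assembled without a gene name are missing from these sums. In bulk tissue, fewer cells of a type and less RNA per cell cannot be told apart.

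Mgmt (ENSMUSG00000054612.4; GRCm38 chromosome 7, 136894614 to 137130266, plus strand) has 1 transcript in the tables, Mgmt-201, with 5 exons and 2894 bases. Control mice 17, 37, 41, 48 and 50 had 1.07, 2.01, 1.45, 1.31 and 2.47 FPKM. PZH mice 8, 14, 27, 46 and 53 had 1.37, 1.46, 1.33, 2.03 and 1.4 FPKM. These 10 mice without AOM/DSS all lay above 1 FPKM. Model mice 23, 30, 33, 44 and 52 had 1.32, 0.91, 0.90, 0.42 and 1.15 FPKM. Model + PZH mice 2, 13, 15, 35 and 36 had 1.08, 0.99, 1.17, 0.85 and 0.54 FPKM. All 10 AOM/DSS mice lay below the median of the 10 others, and 6 lay below the lowest of them.

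Mgmt levels were 1.66 ± 0.57 FPKM in Control, 1.52 ± 0.29 in PZH, 0.94 ± 0.34 in Model and 0.93 ± 0.25 in Model + PZH mice (SD, n = 5 each). The Model and Control groups overlapped through Control mice 17 and 48 and Model mice 23 and 52. On the log2(FPKM + 1) scale, on which the change of a low gene is understated, the difference was −0.45 (SE 0.18, 95% confidence interval −0.84 to −0.06, limma adjusted p = 0.0912). With all 20 mice in 1 model the same difference was called (adjusted p = 0.0366), and over the 17 alternatives its adjusted p ran up to 0.203. In the PZH arm the groups did not overlap, which held for 2.37% of genes in that direction, and the difference was −0.39 (SE 0.13, interval −0.67 to −0.11, limma adjusted p = 0.119). Averaged over both arms in a model of all 20 mice, a contrast added after seeing the data, Mgmt fell by 0.42 (SE 0.11, interval −0.65 to −0.19, limma adjusted p = 0.0063). The averaged fall was called whichever single mouse was left out, with adjusted p between 0.00345 and 0.0134. An estimated 20 to 65 fragments per AOM/DSS mouse and 50 to 123 per other mouse lay behind these values, so counting error alone is wide in the lowest mice.

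**Figure D1:**
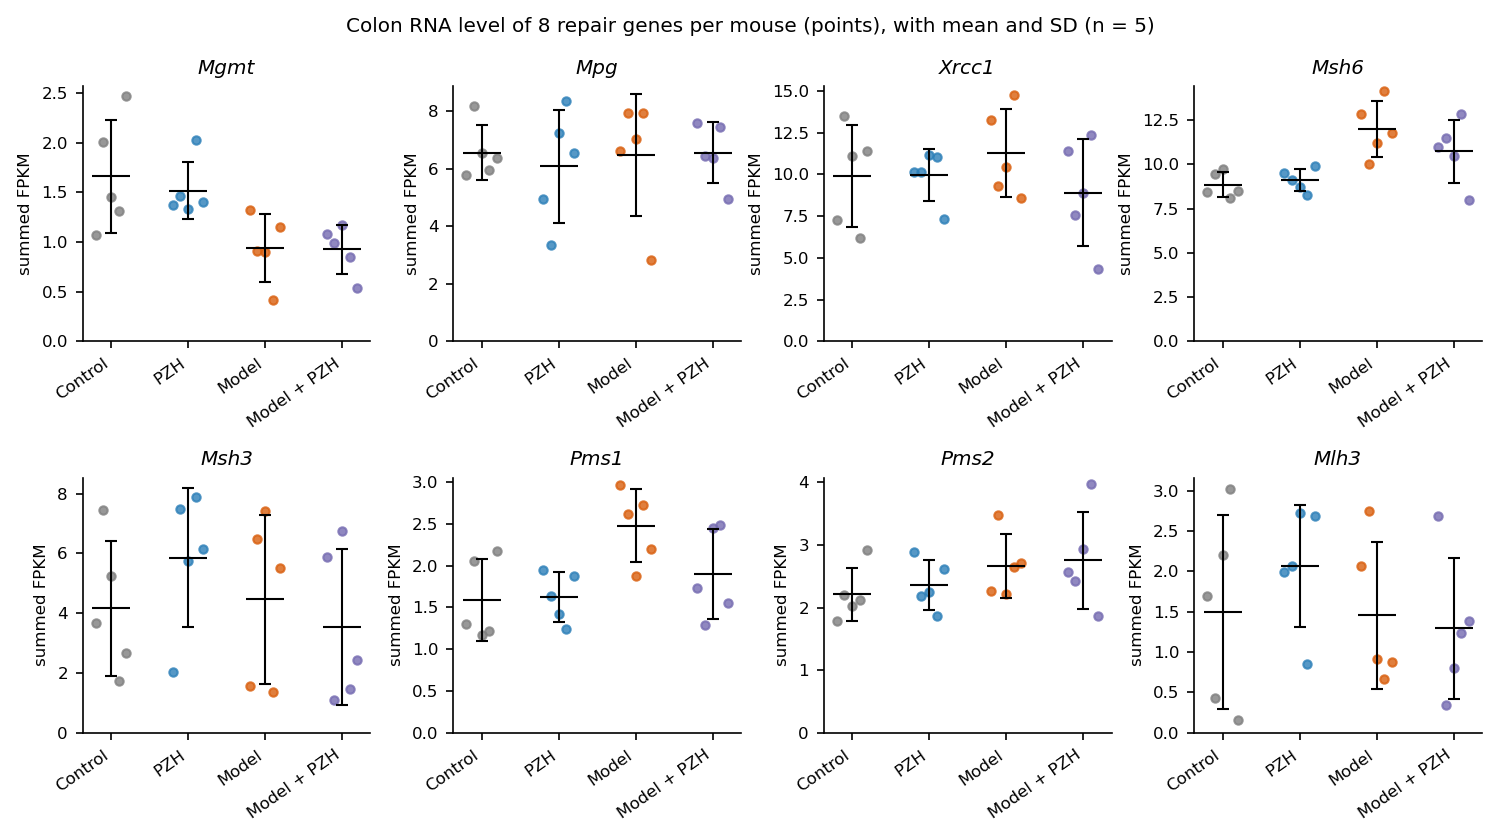
Summed FPKM of each gene (y axis, starting at 0) in each mouse (points) by group (x axis), with the mean as a long bar and the SD as whiskers (n = 5 mice). Mgmt ran from 0.42 to 1.32 FPKM in the 10 AOM/DSS mice and from 1.07 to 2.47 in the others, and Msh6 of all 5 Model mice lay above that of all 5 Control mice.

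Mpg (ENSMUSG00000020287.15; chromosome 11, 32226505 to 32232700, plus strand) had 6.56 ± 0.96 FPKM in Control, 6.08 ± 1.97 in PZH, 6.47 ± 2.11 in Model and 6.55 ± 1.06 in Model + PZH mice (SD, n = 5 each). All 4 groups overlapped. The Model against Control difference was −0.07 (interval −0.57 to 0.43, limma adjusted p = 0.858). Model mouse 52, at 2.84 FPKM, lay far below the other Model mice, and without it the difference was 0.15. A median of 56.1% of the Mpg signal came from its protein-coding transcript Mpg-201, and the rest from a retained-intron transcript and a pair of transcripts annotated for nonsense-mediated decay.

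Xrcc1 (ENSMUSG00000051768.9; chromosome 7, 24546289 to 24573440, plus strand) had 9.90 ± 3.07 FPKM in Control, 9.96 ± 1.54 in PZH, 11.27 ± 2.65 in Model and 8.90 ± 3.18 in Model + PZH mice (SD, n = 5 each). The spread within the groups was large, from 4.35 to 14.77 FPKM over the 20 mice, and the groups overlapped. The Model against Control difference was 0.19 (interval −0.29 to 0.68, limma adjusted p = 0.574). The Model + PZH against Model difference was −0.35 (interval −0.91 to 0.20, limma adjusted p = 0.594). Xrcc1 and Msh6 had the highest mean summed levels of the 8 genes, at 10.01 ± 2.61 and 10.18 ± 1.76 FPKM over the 20 mice (SD), which do not differ beyond their spread. Retained-intron transcripts held 11 to 53.3% of the Xrcc1 sum of each mouse, and its protein-coding part was 6.74 ± 2.13 FPKM (SD, n = 20). All of the Msh6 signal was on 1 protein-coding transcript.

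Msh6 (ENSMUSG00000005370.4; chromosome 17, 87975062 to 87990892, plus strand) has 1 transcript in the tables, Msh6-201, with 10 exons and 4251 bases, and was the most evenly measured member. Control mice 17, 37, 41, 48 and 50 had 8.46, 9.46, 9.74, 8.09 and 8.49 FPKM. PZH mice 8, 14, 27, 46 and 53 had 9.52, 9.13, 8.73, 8.29 and 9.90 FPKM. The mice without AOM/DSS thus differed among themselves by 1.22-fold at most. Model mice 23, 30, 33, 44 and 52 had 12.88, 10.02, 11.21, 14.13 and 11.76 FPKM. Model + PZH mice 2, 13, 15, 35 and 36 had 10.98, 11.49, 10.47, 12.84 and 7.97 FPKM. Of the 10 AOM/DSS mice, 9 lay above the highest of the 10 others, and Model + PZH mouse 36 lay below all of them.

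Msh6 rose from 8.85 ± 0.71 FPKM in Control to 12 ± 1.57 in Model mice (SD, n = 5 each), a ratio of means of 1.36, with no overlap between the groups. The log2 difference was 0.40 (SE 0.11, interval 0.15 to 0.64, limma adjusted p = 0.0285). Msh6 was the only 1 of the 8 genes called in this comparison, against 23.6% of 15812 genes, of which 16.4% were called higher, and 13% of genes were higher without overlap. The count for the 8 genes is thus not above that for all genes. The call was lost after median-of-ratios scaling (0.29, limma adjusted p = 0.0885), with 1 transcript per gene (0.40, adjusted p = 0.0869), without Control mice 17 and 50, which held squamous markers (0.36, adjusted p = 0.111), and without any single one of Control mice 17, 48 and 50 or Model mice 23, 44 and 52 (adjusted p from 0.056 to 0.0721). Over the 17 alternatives tried, Msh6 had an adjusted p between 0.0147 and 0.111 and was called in 8. PZH mice had 9.11 ± 0.64 and Model + PZH mice 10.75 ± 1.79 FPKM (SD, n = 5 each), a difference of 0.20 (interval −0.08 to 0.48, limma adjusted p = 0.387). Averaged over both arms, the rise was 0.30 (SE 0.08, interval 0.13 to 0.47, limma adjusted p = 0.00788).

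In that averaged contrast 3 of the 8 genes were called, Mgmt lower and Msh6 and Pms1 higher. Of 16936 genes tested, 30.3% were called, 20.4% higher and 9.96% lower, so 3 of 8 is near the share among all genes. The median difference of the 8 genes was 0.01, beside 0.07 for all genes tested.

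**Figure D2:**
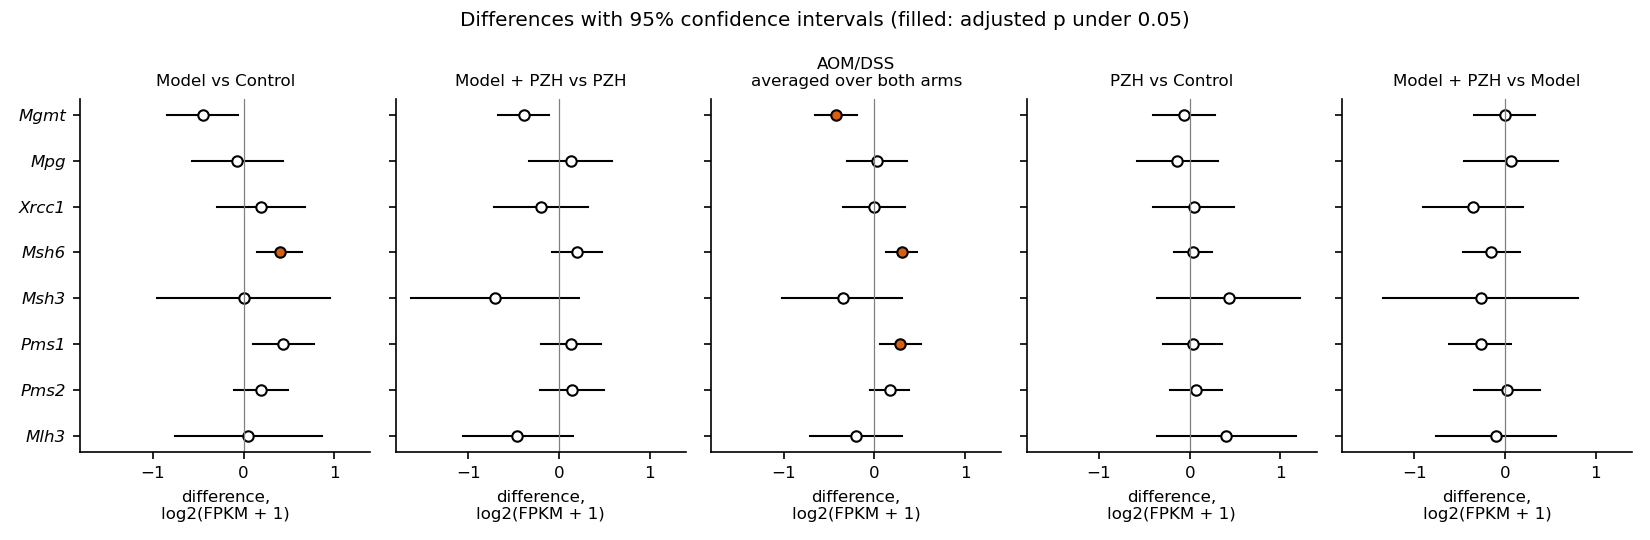
Difference on the log2(FPKM + 1) scale (x axis) for each gene (y axis) in 5 comparisons, with 95% confidence intervals as lines; filled points had an adjusted p under 0.05. Msh6 is filled in Model vs Control, and Mgmt, Msh6 and Pms1 in the contrast averaged over both arms; both panels on PZH hold open points only.

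Msh3 (ENSMUSG00000014850.15; chromosome 13, 92211872 to 92355003, minus strand), which serves the repair of longer insertion and deletion loops, varied 7.10-fold among the 20 mice. Control mice 17, 37, 41, 48 and 50 had 3.69, 7.46, 5.26, 1.73 and 2.66 FPKM. Model mice 23, 30, 33, 44 and 52 had 1.55, 6.50, 7.41, 1.36 and 5.51 FPKM. Low and high mice occurred in every group, and the means were 4.16 ± 2.26 FPKM in Control, 5.86 ± 2.32 in PZH, 4.46 ± 2.83 in Model and 3.54 ± 2.61 in Model + PZH (SD, n = 5 each). The Model against Control difference was 0.00 with an interval of −0.96 to 0.95 (limma adjusted p = 0.997), which does not exclude a change of nearly 1 log2 unit either way.

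Little of the Msh3 signal was assigned by StringTie to protein-coding transcripts. A median of 17.1% fell on transcripts annotated as protein-coding (7.50 to 40.8%), and the 5 retained-intron transcripts, 55.1 to 88.3% of the signal of each mouse, held 3.32 of its 4.5 FPKM on average. The protein-coding part alone was 0.83 ± 0.57 FPKM (SD, n = 20).

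Pms1 (ENSMUSG00000026098.13; chromosome 1, 53189187 to 53297018, minus strand) had 1.3, 2.05, 1.17, 1.22 and 2.18 FPKM in Control mice 17, 37, 41, 48 and 50. Model mice 23, 30, 33, 44 and 52 had 2.96, 2.62, 1.87, 2.73 and 2.20 FPKM. Of the Model mice 4 lay above the highest Control mouse, and mouse 33 lay below Control mice 37 and 50. The means were 1.58 ± 0.49 FPKM in Control and 2.48 ± 0.44 in Model mice (SD, n = 5 each), a ratio of 1.57, and the log2 difference was 0.44 (SE 0.15, interval 0.10 to 0.78, limma adjusted p = 0.0636). Over 17 alternatives its adjusted p ran from 0.037, with all 20 mice in 1 model, to 0.136, with no filter, and it was also called without Control mouse 37 (0.0462) or Control mouse 50 (0.0381).

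In the PZH arm the Pms1 difference was smaller. PZH mice had 1.63 ± 0.30 and Model + PZH mice 1.90 ± 0.54 FPKM (SD, n = 5 each), with overlap and a log2 difference of 0.13 (interval −0.20 to 0.46, limma adjusted p = 0.663). That the arms differ was not shown, as the interaction of AOM/DSS and PZH was −0.31 (interval −0.75 to 0.14, limma adjusted p = 0.637). The averaged contrast gave 0.28 (SE 0.11, interval 0.06 to 0.51, limma adjusted p = 0.0495), and that call was kept in 6 of 20 fits with 1 mouse left out (adjusted p from 0.0248 to 0.093).

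Pms2 (ENSMUSG00000079109.11; chromosome 5, 143909964 to 143933968, plus strand) had 2.21 ± 0.42 FPKM in Control, 2.36 ± 0.40 in PZH, 2.67 ± 0.51 in Model and 2.76 ± 0.78 in Model + PZH mice (SD, n = 5 each). The groups overlapped, with a Model against Control difference of 0.19 (interval −0.11 to 0.49, limma adjusted p = 0.355). A median of 21.5% of its signal was on the only protein-coding transcript in the tables, Pms2-209, which was listed at 0 FPKM in Model + PZH mouse 36.

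Mlh3 (ENSMUSG00000021245.15; chromosome 12, 85234520 to 85270599, minus strand) ran from 0.16 FPKM in Control mouse 50 to 3.02 FPKM in Control mouse 48, which were the lowest and the highest of all 20 mice. The means were 1.5 ± 1.20 FPKM in Control, 2.06 ± 0.75 in PZH, 1.45 ± 0.91 in Model and 1.29 ± 0.88 in Model + PZH mice (SD, n = 5 each). The Model against Control interval was −0.76 to 0.86 (limma adjusted p = 0.939). The protein-coding share of Mlh3 ran from 0.2% to 97.4% between mice, and the remainder was almost all on the retained-intron transcript Mlh3-204.

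**Figure D3:**
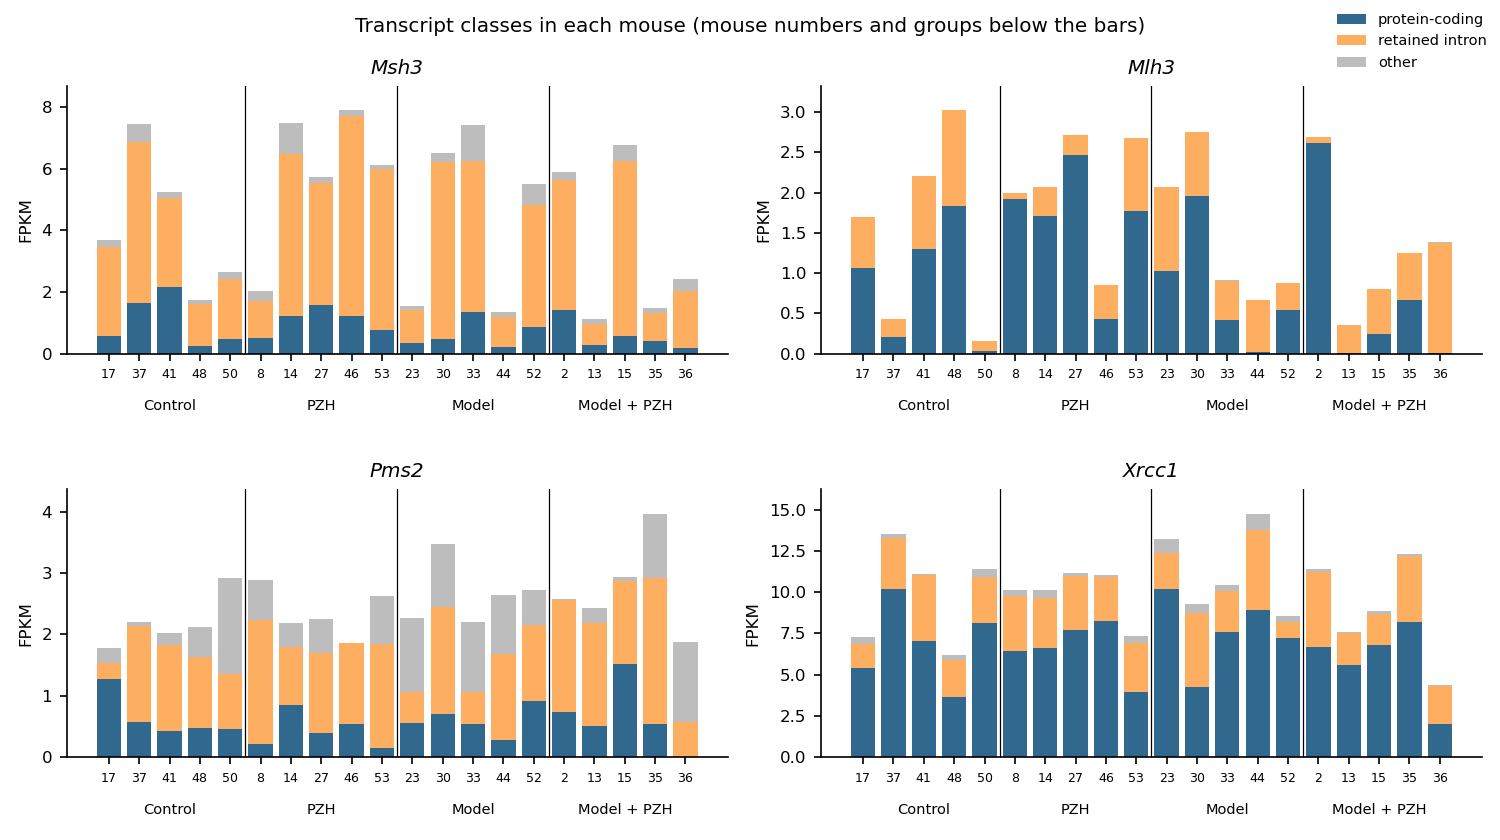
FPKM of Msh3, Mlh3, Pms2 and Xrcc1 (y axis) in each of the 20 mice (x axis), stacked by GENCODE transcript type: protein-coding, retained intron and other. Retained-intron transcripts made up 55.1 to 88.3% of Msh3 in the 20 mice, and the protein-coding part of Mlh3 ranged from nearly none in Model + PZH mice 13 and 36 to 97.4% in mouse 2.

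PZH was compared with its absence in each arm. Between PZH and Control mice the differences of the 8 genes lay between −0.14 (Mpg) and 0.43 (Msh3), and 0 of 8 were called by limma, where 0.00645% of 15506 genes were. At an unadjusted p under 0.05 it was 0 of 8, beside 8.84% of all genes. Between Model + PZH and Model mice they lay between −0.35 (Xrcc1) and 0.07 (Mpg), and 0 of 8 were called by limma, where 0.00629% of 15888 genes were. At an unadjusted p under 0.05 it was again 0 of 8, beside 11.7% of all genes. With so few genes called, these counts say little about the 8 genes. The intervals are more informative, since for Mgmt the Model + PZH against Model difference was 0.00 (interval −0.34 to 0.33) and for Msh6 it was −0.15 (interval −0.46 to 0.16). For Pms1, all 5 Model + PZH mice lay below the Model median, at −0.27 (interval −0.62 to 0.07, limma adjusted p = 0.518). Model + PZH mouse 35 had the highest Msh6 and Pms1 of its group and the highest Pms2 of all 20 mice. Without it 808 genes were called in Model + PZH against Model mice in place of 1, and still 0 of the 8, with −0.21 for Msh6 (limma adjusted p = 0.417), −0.34 for Pms1 (0.238) and −0.48 for Xrcc1 (0.308). Model mice serve in this comparison and in that with Control mice, so high Model values enter both. In Model + PZH against PZH mice 0 of 8 genes were called, where 2.42% of 15636 genes were, and 1 (Mgmt) had an unadjusted p under 0.05, beside 20.9% of all genes. In the interaction 0 of 8 were called, where 0.0118% of 16936 genes were, and 0 had an unadjusted p under 0.05, beside 10.3% of all genes. By the study's criteria, a fold above 2 and an unadjusted P under 0.05, which 7.71% of genes met in Model against Control mice, 0 of the 8 genes did. The study applied these criteria to transcripts with DESeq. Here they were applied to limma differences of gene sums on the log2(FPKM + 1) scale, which understates the fold of low genes.

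The genes of these pathways, the 8 included, were counted in Model against Control mice, where 7 of 49 in 5 lists were called, all higher, beside 23.6% of all genes. None of 6 genes of alkyl lesion reversal (Mgmt, the AlkB homologs and the ASCC complex) and none of 10 glycosylases tested were called by limma, and at an unadjusted p under 0.05 there were 2 in each list (Mgmt and Ascc3, and Ung and Tdg), beside 36% of all genes. Downstream of the glycosylase, 2 of 11 genes rose and none fell, a share close to the 16.4% of all genes called higher, with a median difference of 0.37 beside 0.09 for all genes. They were Parp1, which senses strand breaks, from 15.25 ± 2.52 to 26.96 ± 3 FPKM (log2 difference 0.79, limma adjusted p = 0.00159), and Apex1, the main abasic site nuclease, from 19.59 ± 3.87 to 32.0 ± 4.61 FPKM (0.69, limma adjusted p = 0.00696), both without overlap (SD, n = 5 each).

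In the list of mismatch recognition and MutL genes, 1 of 6 tested was called (Msh6), with a median of 0.12. Msh5, in this list by its MutS family and not as a mismatch repair gene, was not called. It had 1.7 ± 0.65 FPKM in Control and 0.92 ± 0.29 in Model mice (SD, n = 5 each). Its difference was −0.47 (limma adjusted p = 0.089), beside −0.45 for Mgmt. Of 16 genes of excision and resynthesis 4 rose and none fell, beside 16.4% of all genes called higher, with a median of 0.32. These were the exonuclease Exo1 (0.69, limma adjusted p = 0.0471), the polymerase delta subunit Pold3 (0.64, 0.0367), the clamp loader subunit Rfc3 (0.60, 0.0355) and the DNA ligase Lig1 (0.58, 0.0479), and in each the Model and Control mice overlapped. Pold3, Rfc3 and Lig1 also serve DNA replication. None of the genes of these 5 lists was called by limma in Model + PZH against Model, PZH against Control or Model + PZH against PZH mice. At an unadjusted p under 0.05 there were 4 of 50 in the first of these (Apex1, Parp1, Tdp1 and Pold4), 1 of 49 in the second (Ascc2) and 4 of 49 in the third (Mgmt, Exo1, Rpa1 and Rpa2), below the 11.7, 8.84 and 20.9% of all genes. In the contrast averaged over both arms, 17 of 50 genes of the 5 lists were called by limma, beside 30.3% of all genes. Of these 15 were higher, and Mgmt and Msh5 were lower. They included 2 of 6 genes of alkyl lesion reversal (Mgmt and Ascc3) and 1 of 10 glycosylases (Ung). Downstream of the glycosylase it was 5 of 12. Of the enzymes that activate AOM, Adh1 gave −0.63 in Model against Control mice (limma adjusted p = 0.423) and Cyp2e1 was too low to be tested there.

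**Figure D4:**
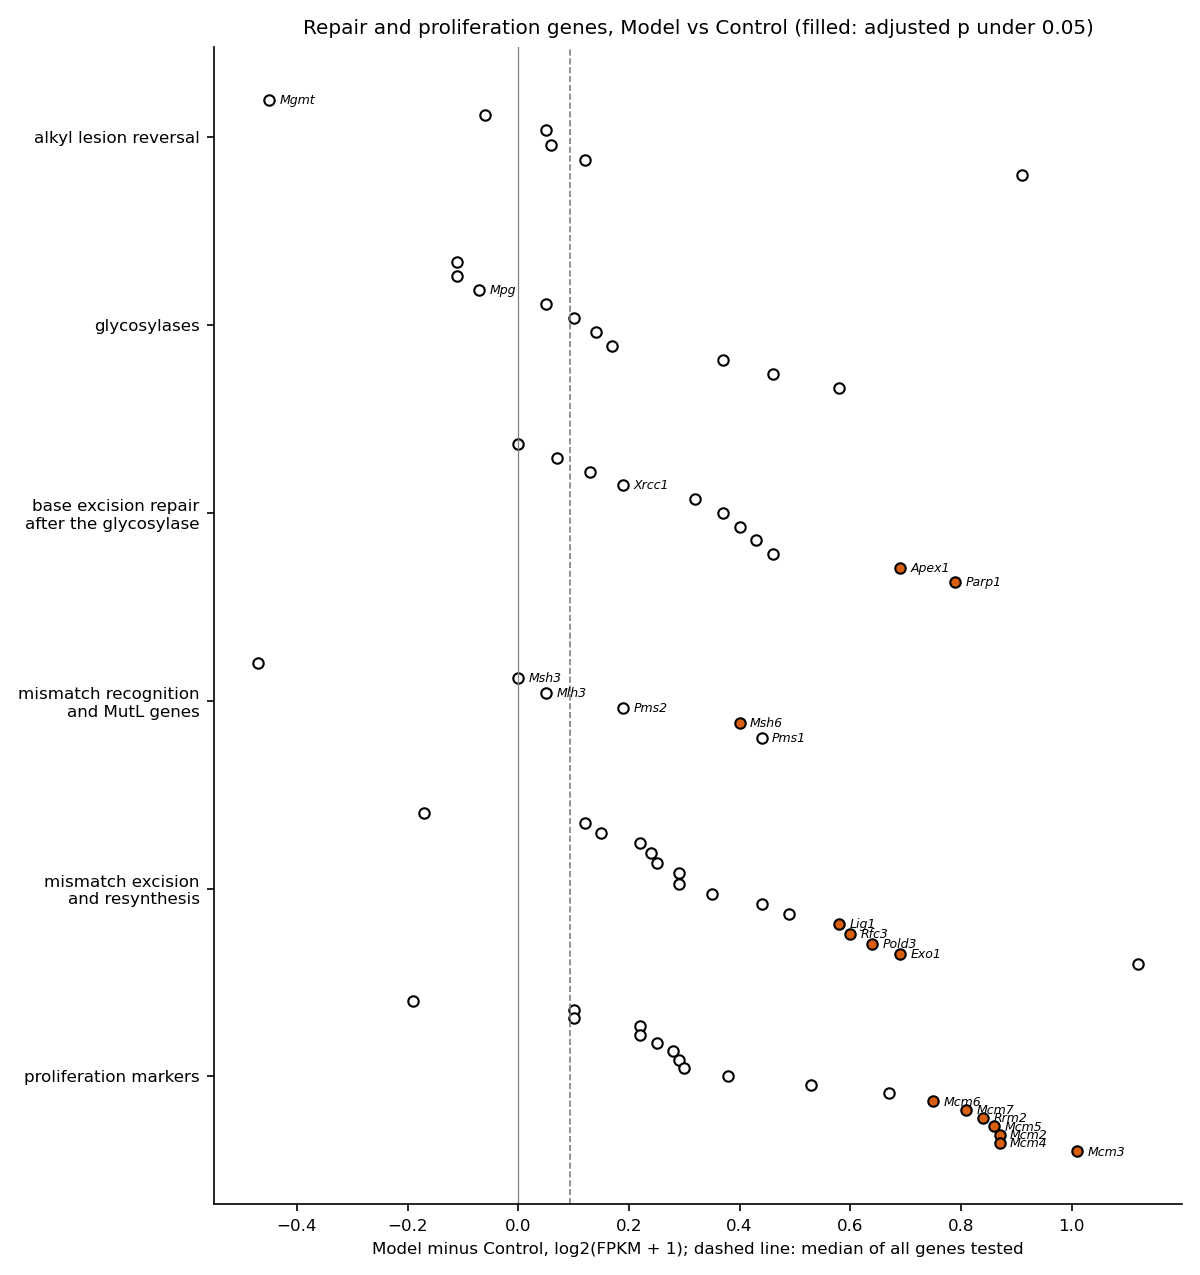
Model minus Control difference on the log2(FPKM + 1) scale (x axis) of each gene tested, by list (y axis); filled points had an adjusted p under 0.05, and the dashed line is the median of all genes (0.09). The filled points, all to the right, are Msh6 and genes of the later steps of repair and of replication. Mgmt and Msh5 (not labelled) lie to the left with open points.

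Some markers of dividing and of other cells also differed between Model and Control mice. Of 19 proliferation markers 7 rose and none fell, beside 16.4% of all genes called higher, with a median of 0.38. They were Rrm2 and the replicative helicase subunits Mcm6, Mcm7, Mcm3 (1.01, limma adjusted p = 0.00323), Mcm2 (0.87, 0.0119), Mcm4 (0.87, 0.00583) and Mcm5 (0.86, 0.0148). The other 12 were not called, among them Mki67 (0.53, limma adjusted p = 0.232), Top2a (0.38, 0.227) and Cdk1 (−0.19, 0.671). The summed level of the 19 markers was 205 to 348 FPKM in Control, 256 to 317 in PZH, 300 to 465 in Model and 246 to 529 in Model + PZH mice. Model + PZH mouse 36, the AOM/DSS mouse with low Msh6, had 316 FPKM, but mouse 13 had the lowest sum of the AOM/DSS mice, 246 FPKM, with 11.49 FPKM of Msh6. Their part in the Msh6 result was not tested.

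Beside Mgmt, the summed smooth muscle markers were 1684 to 3733 FPKM in Control, 757 to 1820 in PZH, 741 to 1310 in Model and 628 to 1583 in Model + PZH mice. Control mouse 50 was highest in both Mgmt (2.47 FPKM) and these markers. PZH mouse 46, however, had the lowest marker sum of the mice without AOM/DSS, 757 FPKM, and the highest Mgmt of its group, 2.03 FPKM. Colon epithelium markers summed to 3484 to 7282 FPKM in Control and 2560 to 6025 FPKM in Model mice. These sums include Krt8 (0.07 to 3071.31 FPKM between mice) and Epcam (0 to 864.72 FPKM), so their overlap says little about single markers. Of 10 markers tested in Model against Control mice, 8 were lower and 2 higher. Called lower by limma were 4, Slc26a3 (log2 difference −2.39), Car1 (−2.21), Phgr1 (−1.7) and Cdx1 (−0.62). The higher ones, Krt8 and Muc2, were not called. The part of tissue makeup in the Mgmt result was not tested.

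**Figure D5:**
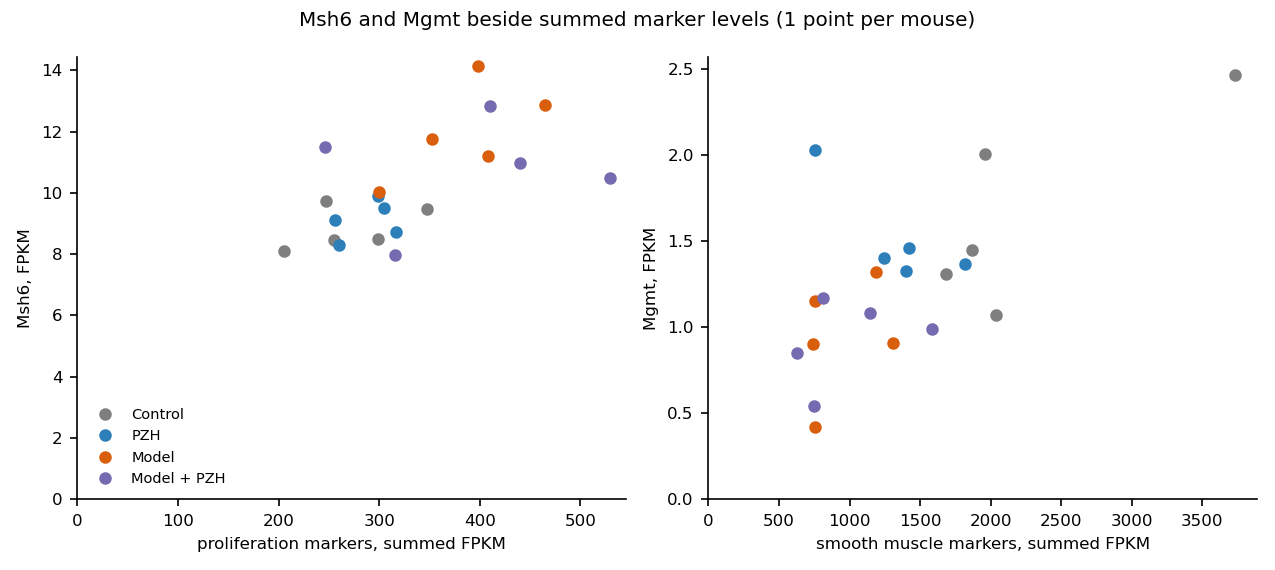
Left, Msh6 FPKM (y axis) against summed FPKM of 19 proliferation markers (x axis), and right, Mgmt FPKM against summed FPKM of 7 smooth muscle markers, with 1 point per mouse coloured by group. For Msh6, 4 of 5 Model mice lie above and to the right of all Control and PZH mice. For Mgmt the AOM/DSS mice lie low on the y axis and overlap the PZH mice on the x axis, and PZH mouse 46 lies apart at 757 FPKM of markers and 2.03 FPKM of Mgmt.

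The genes most like each member over the 20 mice were taken by Pearson's r of log2(FPKM + 1) among 15550 genes, as a description in which group differences and tissue makeup enter. For Mgmt they were Rtca (r = 0.92), Fdx1 (0.85) and Mageh1 (0.83). Fdx1, a ferredoxin of mitochondria, had 40.7 ± 5.00 FPKM in Control and 29.5 ± 4.45 FPKM in Model mice (SD, n = 5 each). For Msh6 they were the splicing factor Sf3b4 (0.93), Cnn3 and Pidd1 (0.90 each), and Sf3b4 had 23.56 ± 2.27 FPKM in Control and 32.66 ± 2.68 FPKM in Model mice (SD, n = 5 each). For Pms1 they were Scoc, Arl6 and Cwf19l1 (0.89 each). Xrcc1 was most like Derl1 (0.85), Lsm8 and Hmga1 (0.82 each), and Pms2 most like Fubp1 (0.81), Xpo5 (0.80) and Matr3 (0.79). The values were lower for Mpg, with Ttc33 (0.75) and Rad51d (0.70), for Mlh3, with Arhgef39 (0.75), Plekha5 (0.73) and Gm18329 (0.71), and for Msh3, with Mtif3, Rit1 (0.69 each) and Ogfrl1 (0.68).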

How the data were processed

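RNA-seq of colon from 20 mice was analysed, with groups taken from the labels. What the authors deposited is 1 FPKM value for each transcript and mouse. By the study's methods, total RNA was depleted of ribosomal RNA and taken through a poly(A) mRNA isolation kit. Reads were then filtered with NGSQC, aligned to mm10 with HISAT2 and quantified with StringTie. The files hold no counts, and the unit was taken from the methods and the values. The submitters' processing notes also name limma. Fragments assigned to the 22252 assembled transcripts without a gene name, or shared among transcripts by StringTie's model, can move a gene sum.

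Of 96182 Ensembl transcripts, 96032 were found in GENCODE M21 (GRCm38) and summed to 32991 genes, and 150 were left out. A gene entered a fit if 5 or more of its mice had 0.5 FPKM or above. Fits used limma 3.58.1 (R 4.3.3) on log2(FPKM + 1), with an intensity trend, no covariates and the 10 mice of each pair of groups, or all 20 for the interaction and the averaged contrast. All 8 genes passed this filter in every comparison. P-values are two-sided, adjusted by Benjamini-Hochberg over all genes tested and called under 0.05, and measure the spread between mice. No batch is named in the sources used here.

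Depth was the step that best made FPKM times length whole in 17642 genes with 1 transcript in the tables. Between 42.3 and 47.8% of low values lay within 0.05 of a whole step, so depth is approximate, and estimated fragments carry that error. The fits and the depth search were tested on simulated data.

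Named genes were the 8 members, up to 4 called genes of each pathway list with the largest Model against Control difference, and the 3 genes most like each member, of which 1 is not reported here. The members and lists were chosen with earlier results of these data known. The contrast averaged over both arms, protein-coding transcripts only and leaving out the Control mice with over 100 FPKM of squamous markers were added after seeing the data. The other alternatives were a pseudocount of 0.1, no filter, median-of-ratios scaling, all 20 mice in 1 model, 1 transcript per gene, the study's fold criteria and leaving out each mouse.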

Additional observations from a re-analysis of the deposited data

Results flagged for a closer look

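Among 32 sets of 5 values, 1 for each gene and group, 3 held a mouse far from the other 4 by Dixon's criterion (gap over range above 0.71), where chance flags about 1 in 20, or 1.6 of 32. PZH mouse 46 had 2.03 FPKM of Mgmt, and the next PZH mouse 1.46. Model mouse 52 had 2.84 FPKM of Mpg, and the next Model mouse 6.62. PZH mouse 53 had 7.34 FPKM of Xrcc1, and the next PZH mouse 10.11.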

How the results depend on the processing

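Of 940 alternative values of the 8 genes, 74 had the opposite sign, and none of these belonged to a difference called as reported. The averaged falls of Mgmt and rises of Msh6 were called in all 26 alternatives each (adjusted p 0.0029 to 0.0242 and 0.00125 to 0.0318), and the averaged rise of Pms1 in 8 of 26 (0.0248 to 0.0995), being lost with a pseudocount of 0.1 (0.41, adjusted p = 0.0544), no filter (0.0965), scaling (0.22, 0.0995) and protein-coding transcripts only (0.0547). The cause of these losses was not tested. Low levels, 20 to 65 estimated fragments for Mgmt with AOM/DSS, and the spread of Msh3 and Mlh3 limit what could be seen.

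In Model against Control, 1 of the 8 genes was called as reported, 0 after scaling, 0 with 1 transcript per gene, 0 without the squamous Control mice, 0 by the study's criteria and 3 with all 20 mice in 1 model. The averaged contrast had 3 as reported and 0 by the study's criteria, which were applied here to limma fits of gene sums. By those criteria, 1219 genes passed in Model against Control (3739 as reported), 382 in Model + PZH against Model (1), 107 in PZH against Control (1), 438 in the interaction (2) and 798 in the averaged contrast (5138). With all 20 mice, 89 genes were called in Model + PZH against Model, 0 in PZH against Control and 1002 in Model + PZH against PZH (378 as reported). Without the filter there were 0 in Model + PZH against Model, 90 in Model + PZH against PZH and 0 in the interaction, which also had 0 with a pseudocount of 0.1 and 0 without the squamous Control mice. With 1 mouse left out, genes called ran from 2516 to 3562 in Model against Control, 1 to 808 in Model + PZH against Model, 1 to 2 in PZH against Control, 54 to 423 in Model + PZH against PZH, 0 to 476 in the interaction and 4617 to 5367 in the averaged contrast. The 808 and the 476 were without Model + PZH mouse 35, and every other mouse left out gave at most 3 and 1. In Model + PZH against PZH, leaving out any PZH mouse or Model + PZH mouse 2 or 15 lowered the count to between 54 and 229. Of the 8 genes, 0 to 2 were called in Model against Control, 2 to 3 in the averaged contrast and none in the others.

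Differences that changed sign were all uncalled. After scaling they were Mlh3 −0.02 in Model against Control, Mgmt 0.01 in Model + PZH against Model and Mpg −0.05 averaged. A pseudocount of 0.1 gave Mgmt 0.02 in Model + PZH against Model, and leaving out the squamous Control mice gave Mlh3 −0.18 in Model against Control. With 1 transcript per gene, Msh3 was 0.10 and Pms2 −0.15 in Model against Control, Mpg −0.08 in Model + PZH against Model, Xrcc1 −0.33 and Pms1 −0.09 in PZH against Control, Xrcc1 0.09 and Pms2 −0.09 in Model + PZH against PZH, Mlh3 0.08 and Pms2 0.06 in the interaction, and Xrcc1 0.12, Mlh3 0.11 and Pms2 −0.12 averaged. With protein-coding transcripts only, Mlh3 was −0.06 and Pms2 −0.03 in Model against Control, Mpg −0.08 in Model + PZH against Model, Xrcc1 −0.02 in PZH against Control and Pms2 0.20 in the interaction.

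Leaving out 1 mouse, Model against Control ran from −0.15 to 0.15 for Mpg, −0.21 to 0.25 for Msh3 and −0.19 to 0.26 for Mlh3. Model + PZH against Model ran from −0.11 to 0.08 for Mgmt, −0.16 to 0.15 for Mpg, −0.29 to 0.07 for Mlh3 and −0.09 to 0.11 for Pms2. PZH against Control ran from −0.15 to 0.04 for Mgmt, −0.25 to 0.03 for Mpg, −0.09 to 0.16 for Xrcc1 and −0.02 to 0.12 for Pms1. Model + PZH against PZH ran from −0.03 to 0.24 for Mpg and −0.33 to 0.00 for Xrcc1. The interaction ran from −0.05 to 0.14 for Mgmt, −0.02 to 0.31 for Mpg and −0.15 to 0.04 for Pms2, and the averaged contrast from −0.05 to 0.14 for Mpg and −0.07 to 0.10 for Xrcc1. No paired analysis was possible because the mouse numbers in the labels are not shared between groups.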
